A study of Mus musculus with 11 samples.

Results

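Spg21, Pts, Dlat, Cryab and Adpgk are 5 protein-coding genes of mouse chromosome 9, the chromosome that also carries Chrnb4, the gene disrupted in the mutant mice of this study. They were taken as a group because earlier results of these data had shown lower signals for them in the mutant brains. They are 5 of 8251 genes named on the array, and every probe set annotated to them was used, 7 of 12488. A probe set is a group of short probes on the array that together give 1 signal for a transcript. Spg21, Pts and Adpgk have 1 probe set each, and Dlat and Cryab have 2 each. A filter on low signals left 6 of the 7 for testing, and the other, a second Cryab probe set, is described with its values only. Because the genotype difference chose these genes, that difference is given for them as a description, without a test.

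Whole brains of untreated C57BL/6J mice were measured, 1 mouse per array. The null group held 5 mice homozygous for a null allele of Chrnb4, which encodes β4, a subunit of nicotinic acetylcholine receptors. Null 1 and null 2 were males of 9 weeks, null 3 was a female of 7 weeks, and null 4 and null 5 were females of 8 weeks. The wild-type group held 6 littermate controls, with wild-type 1 (male, 9 weeks), wild-type 2 (male, 8 weeks) and wild-type 3 (female, 7 weeks) under mouse numbers that start with B4. Wild-type 4 (male), wild-type 5 (female) and wild-type 6 (male) were 6 weeks old and had numbers that start with LT. All null mice had B4 numbers. How the null allele was made, and whether it covers other genes, was not given in the sources used here.

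The 5 genes serve unrelated processes. Spg21 encodes maspardin, a protein of endosomal and trans-Golgi membranes whose loss in humans causes Mast syndrome, a hereditary spastic paraplegia. Pts encodes 6-pyruvoyl-tetrahydropterin synthase, an enzyme in the synthesis of tetrahydrobiopterin, the cofactor that tyrosine hydroxylase and tryptophan hydroxylase need to make dopamine, noradrenaline and serotonin. Dlat encodes the acetyltransferase subunit of the mitochondrial pyruvate dehydrogenase complex, which turns pyruvate into acetyl-CoA. Adpgk encodes a glucokinase that phosphorylates glucose with ADP in place of ATP. Cryab encodes αB-crystallin, a small heat-shock protein that holds unfolded proteins in solution and that, in brain, is best known from oligodendrocytes and astrocytes.

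The trimmed mean signal was 150.1 on each array, and the median signal was 58.3 and 56.3 on null 1 and null 2, 46.3 to 46.8 on the 3 female null arrays and 43.6 to 49.75 on the wild-type arrays. The ratio of the 3′ to the 5′ control probe set for Gapdh, a glycolytic enzyme read at both ends of its transcript, was 0.859, 0.798, 2.75, 2.19 and 3.58 on null 1 to null 5. It was 3.57 to 5.92 on the wild-type arrays. Null 1 and null 2 were the only arrays with a ratio below 1. They are also the only male null mice and the oldest null mice. Sex, the oldest age and the low ratio therefore cannot be told apart within the null group. Null 3 and null 4 also had ratios below every wild-type array. Genotype and the ratio therefore cannot be fully told apart, with or without null 1 and null 2. The genotype difference of each tested probe set of the 5 genes is given with and without null 1 and null 2. With sex as covariate and no male null array left, the value without them rests on 3 female null and 2 female wild-type arrays. It is the same estimate as the difference in females from the model with the interaction. This holds for every log2 difference given below without null 1 and null 2. Chrnb4 has 0 probe sets on the array, so the genotype labels could not be checked through the disrupted gene.

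In the gene order of GRCm38.p6, Pts lies 59 protein-coding genes before Chrnb4, Dlat 51 before it and Cryab 48 before it. Adpgk lies 60 genes beyond Chrnb4 and Spg21 123 beyond it. By this count of genes none of the 5 is next to Chrnb4. Only Pts, Dlat and Cryab lie close to each other, with 7 genes between Pts and Dlat and 2 between Dlat and Cryab. The distance to Chrnb4 in bases was not measured. Whether the stretches that hold the 5 genes were inherited together with the null allele was not tested. The promoter regions are shown because the 5 genes were lower together, so that their start sites can be set side by side. RefSeq's table for GRCm38.p6 held 4 of the 5, each from 250 bases before to 50 bases after the gene start, and Cryab is named only. Written 5′ to 3′ on the gene's own strand, they are chr9:65460687-65460986 (plus strand) for Spg21, chr9:50528607-50528906 (minus strand) for Pts, chr9:50659731-50660030 (minus strand) for Dlat and chr9:59291322-59291621 (plus strand) for Adpgk. Capitals mark matches to 5 motifs searched on both strands, which are the GC box GGGCGG, the ETS core CCGGAAG, the CCAAT box CCAAT, the TATA box TATAAA and the heat-shock element GAANNTTC.
Spg21: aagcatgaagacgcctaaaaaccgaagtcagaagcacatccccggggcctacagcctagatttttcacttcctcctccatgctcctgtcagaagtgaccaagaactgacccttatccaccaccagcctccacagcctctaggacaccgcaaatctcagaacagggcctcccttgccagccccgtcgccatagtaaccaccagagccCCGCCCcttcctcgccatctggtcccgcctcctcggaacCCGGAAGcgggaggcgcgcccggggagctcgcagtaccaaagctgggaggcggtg
Pts: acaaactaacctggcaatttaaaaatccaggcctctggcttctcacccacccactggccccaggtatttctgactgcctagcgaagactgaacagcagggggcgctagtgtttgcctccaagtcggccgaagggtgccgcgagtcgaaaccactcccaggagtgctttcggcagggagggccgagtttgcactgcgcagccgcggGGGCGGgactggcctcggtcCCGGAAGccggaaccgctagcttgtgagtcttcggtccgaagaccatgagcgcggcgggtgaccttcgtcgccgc
Dlat: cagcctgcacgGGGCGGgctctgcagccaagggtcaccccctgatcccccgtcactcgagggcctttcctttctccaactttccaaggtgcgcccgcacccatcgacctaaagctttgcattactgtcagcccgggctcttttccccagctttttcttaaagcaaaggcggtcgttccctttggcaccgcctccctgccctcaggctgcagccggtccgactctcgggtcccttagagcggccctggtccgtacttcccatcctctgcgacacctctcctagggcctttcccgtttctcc
Adpgk: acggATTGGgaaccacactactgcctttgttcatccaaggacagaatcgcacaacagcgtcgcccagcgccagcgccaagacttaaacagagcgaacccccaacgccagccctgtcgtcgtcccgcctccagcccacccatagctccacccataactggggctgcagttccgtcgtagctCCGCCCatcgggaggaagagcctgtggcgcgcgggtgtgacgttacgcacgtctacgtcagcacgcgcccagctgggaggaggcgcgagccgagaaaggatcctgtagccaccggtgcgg
The share of G and C was 61.0% for Spg21, 62.7% for Pts, 62.0% for Dlat and 63.7% for Adpgk, against a median of 52.7% over all 32851 promoter windows of the table. A GC box, which 35.7% of all windows hold, was found once in each of the 4, at 44 bases before the start in Spg21, 45 in Pts, 239 in Dlat and 70 in Adpgk. The ETS core, which 8.86% of all windows hold, was found in Spg21 and Pts, 5 and 25 bases before the start. The CCAAT box, in 37.4% of all windows, was found in Adpgk alone, 246 bases before the start, and no 2 of these matches overlapped. The letters of the TATA box (13.6% of all windows) and of the heat-shock element (7.86%) are in none of the 4 windows. A match is a description of the letters and does not show that a factor binds there.

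**Figure D1:**
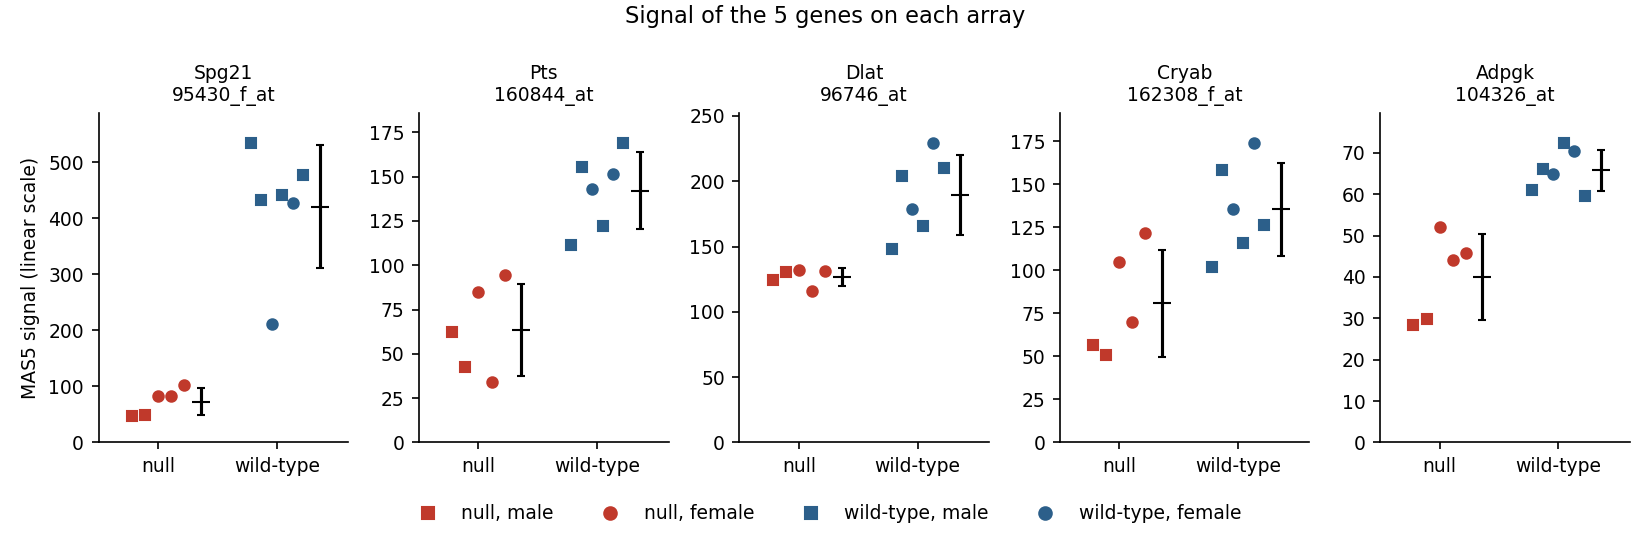
Signal of the 5 genes through their brighter or only probe set on each array (linear MAS5 signal, arbitrary units), with null arrays left and wild-type arrays right in every panel. Each point is 1 mouse (squares male, circles female) and the black mark beside each group its mean with SD; all null points lie below all wild-type points for Spg21, Pts, Dlat and Adpgk, and the groups overlap for Cryab.

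Spg21 showed the widest gap of the 5 genes between null and wild-type brains. Its probe set 95430_f_at had signals of 47.6, 49.4, 83.4, 82.0 and 102.1 on null 1 to null 5. On the 6 wild-type arrays the lowest signal was 211.6, the median 437.0 and the highest 534.2. The groups were far apart, and the highest null array (null 5) reached less than the lowest wild-type array (wild-type 3). The mean was 72.9 ± 23.7 (SD, n = 5) in null brains, against 420.6 ± 109.9 (SD, n = 6) in wild-type brains. With sex as a covariate, the log2 difference was -2.56 (SE 0.27), 5.89-fold lower in null brains. This was the lowest of the differences over all 7453 tested probe sets. Without null 1 and null 2 the difference was -1.76 (SE 0.25), 3.39-fold lower. The female wild-type arrays on which this value rests differed, with 211.6 on wild-type 3 and 426.8 on wild-type 5. The suffix _f marks probes that may also bind related sequences, so the signal may not be that of Spg21 alone.

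Pts, which acts at the middle step of tetrahydrobiopterin synthesis, was lower on each null array than on any wild-type array. Its probe set 160844_at had signals of 62.1, 42.4, 84.7, 34.1 and 94.6 on null 1 to null 5. On the wild-type arrays the lowest signal was 111.7, the median 147.3 and the highest 169.0. The null arrays scattered more than the wild-type arrays, and their lowest and highest values were both female (null 4 and null 5). The mean was 63.6 ± 26.1 (SD, n = 5) in null brains, against 142.2 ± 21.5 (SD, n = 6) in wild-type brains. On the log2 scale the difference was -1.31 (SE 0.26), 2.48-fold lower in null brains, and ranked 11 from the lowest. It was -1.18 (SE 0.37) without null 1 and null 2.

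Dlat, the pyruvate dehydrogenase acetyltransferase, had a small difference with little spread among null brains. Its brighter probe set 96746_at had signals of 124.0, 130.6, 131.9, 115.8 and 131.6 on null 1 to null 5, against a lowest signal of 148.1, a median of 191.5 and a highest of 229.3 on the wild-type arrays. The null arrays lay close together, male and female alike, and all of them were below wild-type 1, the lowest wild-type array. The mean was 126.8 ± 6.93 (SD, n = 5) in null brains, against 189.4 ± 30.5 (SD, n = 6) in wild-type brains. On the log2 scale the difference was -0.59 (SE 0.14), 1.5-fold lower in null brains, at rank 223 from the lowest, and -0.68 (SE 0.20) without null 1 and null 2.

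The other Dlat probe set, 96745_at, did not show this. It had signals of 20.7, 31.2, 30.4, 32.3 and 42.5 on null 1 to null 5, against a lowest of 16.1, a median of 30.4 and a highest of 55.6 on the wild-type arrays. The groups overlapped fully, with the lowest and the highest array both wild-type. The mean was 31.4 ± 7.74 (SD, n = 5) in null brains, against 30.95 ± 14.7 (SD, n = 6) in wild-type brains, and the log2 difference was 0.15 (SE 0.36), or 0.70 (SE 0.50) without null 1 and null 2. This probe set was dim, with a mean log2 signal of 4.87 where the filter lay at 4.69, and its SE was wider than that of the brighter one. The pair of Dlat probe sets therefore disagreed in sign, and the lower signal in null brains rests on the brighter one.

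Adpgk, the ADP-dependent glucokinase, was lower on each null array than on any wild-type array. Its probe set 104326_at had signals of 28.4, 29.9, 52.0, 44.0 and 45.9 on null 1 to null 5. On the wild-type arrays the lowest signal was 59.6, the median 65.5 and the highest 72.4. The wild-type arrays were tight, and the male null arrays lay apart from the female null arrays at the low end. The mean was 40.04 ± 10.4 (SD, n = 5) in null brains, against 65.75 ± 5.06 (SD, n = 6) in wild-type brains. On the log2 scale the difference was -0.85 (SE 0.19), 1.80-fold lower in null brains, at rank 48 from the lowest. It shrank to -0.52 (SE 0.23), 1.43-fold lower, without null 1 and null 2.

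Cryab, the αB-crystallin gene, was the one of the 5 whose groups overlapped. Its brighter probe set 162308_f_at had signals of 56.6, 50.6, 104.9, 69.8 and 121.7 on null 1 to null 5, against a lowest of 101.7, a median of 130.9 and a highest of 173.9 on the wild-type arrays. Null 1, null 2 and null 4 lay below all wild-type arrays, while null 3 and null 5 lay above wild-type 1. The mean was 80.7 ± 31.1 (SD, n = 5) in null brains, against 135.3 ± 26.8 (SD, n = 6) in wild-type brains. On the log2 scale the difference was -0.96 (SE 0.20), 1.94-fold lower in null brains, at rank 34 from the lowest, and -0.67 (SE 0.27) without null 1 and null 2. This probe set, too, has the suffix _f.

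The other Cryab probe set, 93279_at, was dim on all 11 arrays. It had signals of 9.8, 7.0, 2.8, 7.5 and 4.6 on null 1 to null 5, against a lowest of 3.1, a median of 4.5 and a highest of 11.2 on the wild-type arrays. With 1 null and 1 wild-type array at or under the floor of 3.1, the groups overlapped and the probe set did not pass the filter. Without the filter its log2 difference was 0.38 (SE 0.34), so that the lower Cryab signal, like that of Dlat, rests on 1 of 2 probe sets. In whole brains, fewer cells of a type and less RNA per cell cannot be told apart.

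The null arrays lay below all wild-type arrays for 4 of the 5 genes, and they did so with the 3 female null arrays alone for 4 of 5, again all but Cryab. Over all tested probe sets, 0.496% had all 5 null arrays below all 6 wild-type arrays and 0.59% had them above. With the 3 female null arrays alone, 0.832% lay below and 1.09% above. The 5 genes were chosen on this contrast, so their counts are a description. Over all 7453 tested probe sets, limma's test at an adjusted p threshold of 0.05 called 2 for genotype, or 0.0268%. Without null 1 and null 2 it called 0, and 264 had an unadjusted p under 0.05. Null 5, whose Gapdh ratio of 3.58 was just above the lowest wild-type ratio of 3.57, was below all wild-type arrays for Spg21, Pts, Dlat and Adpgk and not for Cryab. This is 1 array of the contrast that chose the genes. The share of all tested probe sets with null 5 this low was not counted, so this too is only a description.

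**Figure D2:**
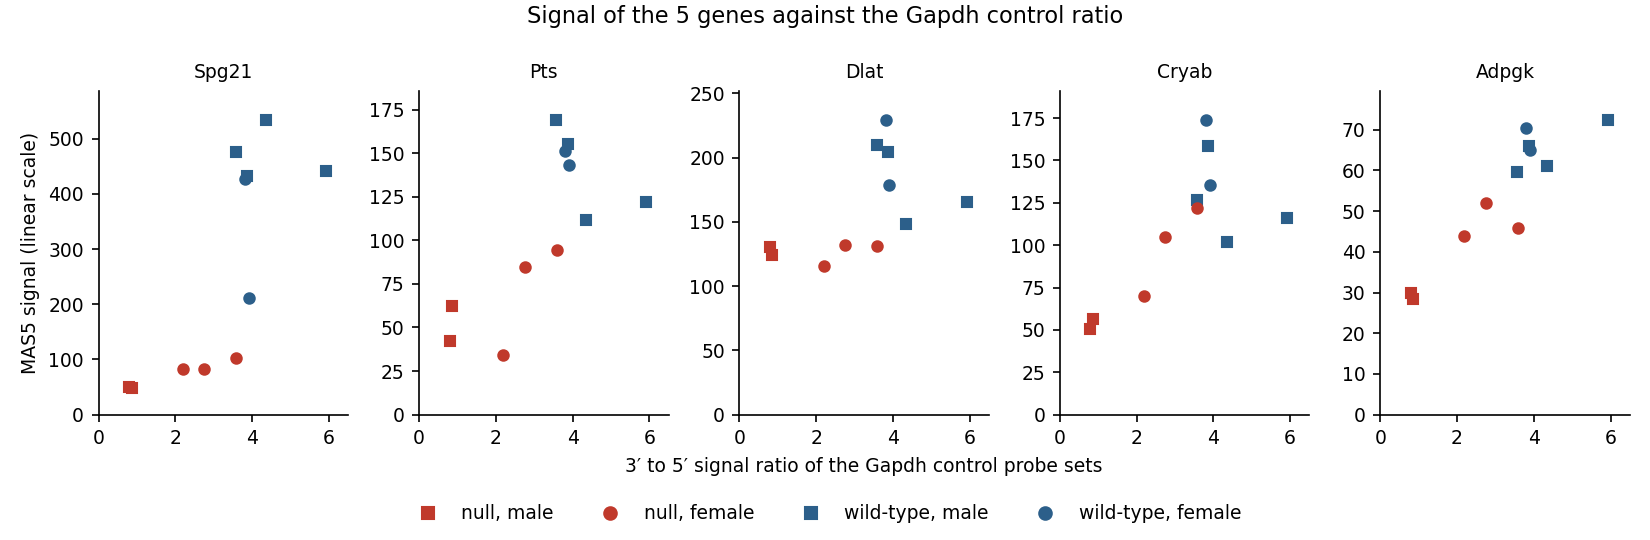
Signal of the 5 genes (linear, arbitrary units, each through its brighter or only probe set) against the Gapdh 3′ to 5′ signal ratio of the same array, each point 1 array. Null 1 and null 2 stand alone at ratios of 0.859 and 0.798, and null 5 at 3.58 lies just within the wild-type range of 3.57 to 5.92.

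Sex was a contrast that did not itself choose the genes. The sexes were unevenly spread over the genotypes, so the sex estimate is not independent of the genotype difference. A choice of low genotype differences tends to raise it. Over all 11 arrays with genotype as a covariate, none of the 5 passed limma's test between female and male brains. Cryab had the widest difference, 0.56 on the log2 scale (SE 0.20, limma adjusted p = 0.329), and Adpgk had 0.36 (SE 0.19, limma adjusted p = 0.441), both as female minus male. Pts had 0.21 (SE 0.26), Dlat 0.08 (SE 0.14) and Spg21 0.07 (SE 0.27), with limma adjusted p of 0.737, 0.820 and 0.923. Limma called 0.0% of the 7453 tested probe sets for sex, and 926 of them, or 12.4%, had an unadjusted p under 0.05. For Spg21, Pts and Dlat the sign of the sex difference turned with the covariates.

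Of the 5 genes, Spg21 passed the test of whether the genotype difference is the same in both sexes, a test that 15.9% of the 7453 tested probe sets passed. Its mean signal was 89.2 ± 11.2 (SD, n = 3) in female null and 319.2 ± 152.2 (SD, n = 2) in female wild-type brains. It was 48.5 ± 1.27 (SD, n = 2) in male null and 471.3 ± 46.1 (SD, n = 4) in male wild-type brains. On the log2 scale the difference was -1.76 (SE 0.24) in females and -3.28 (SE 0.23) in males. The difference between these, females minus males, was 1.52 (SE 0.34, limma adjusted p = 0.0107). Over all tested probe sets 7.25% passed with a positive and 8.68% with a negative value, so 1 of 5 genes is near the background. Of the 2 female wild-type arrays, wild-type 5 had 426.8 and wild-type 3 had 211.6. Without wild-type 3 the value was 1.01 (limma adjusted p = 0.0273). With the Gapdh ratio as a further covariate it was 1.29 and no longer passed (limma adjusted p = 0.627). The part of that ratio in the Spg21 result was not tested apart from sex, because the male null arrays are the arrays with the low ratio. The male null mice were also the oldest null mice.

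The other 4 genes did not pass the interaction test. Adpgk had a mean of 47.3 ± 4.18 (SD, n = 3) in female null against 67.7 ± 3.96 (SD, n = 2) in female wild-type brains, and 29.15 ± 1.06 (SD, n = 2) in male null against 64.8 ± 5.80 (SD, n = 4) in male wild-type brains. Its genotype difference was -0.52 in females and -1.15 in males, and the interaction was 0.63 (SE 0.32, limma adjusted p = 0.206). Cryab had -0.67 in females and -1.21 in males, with an interaction of 0.54 (SE 0.36, limma adjusted p = 0.334). For Pts the female and male differences were -1.18 and -1.42 (interaction 0.24, SE 0.51, limma adjusted p = 0.797). Dlat was the one gene with the wider difference in females, -0.68 against -0.50 in males (interaction -0.18, SE 0.27, limma adjusted p = 0.697). The sign of the interaction turned under other settings for Pts, Dlat and Cryab. Each of these values rests on 2 male null and 2 female wild-type arrays.

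**Figure D3:**
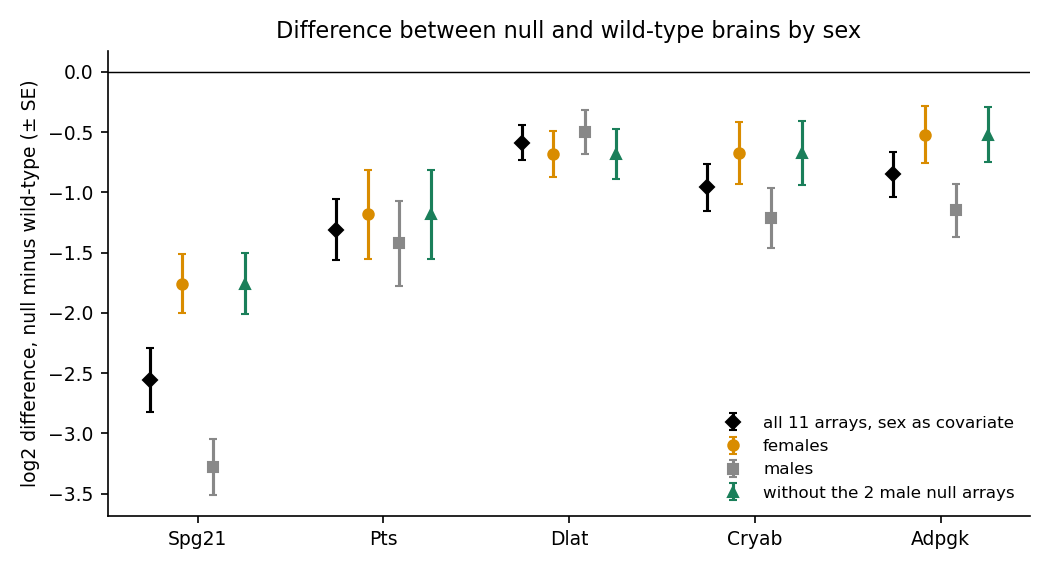
Null minus wild-type log2 difference of the 5 genes, with bars for the standard error, over all 11 arrays with sex as a covariate (diamonds), in females (circles) and in males (squares) from the model with the interaction, and without the 2 male null arrays (triangles). All values lie below 0, and Spg21 shows -1.76 in females and -3.28 in males. Triangles and circles have the same values, because both rest on the female arrays alone.

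Within the wild-type group, LT and B4 mice were compared because only B4 mice are null. None of the 5 genes passed limma's test between 3 LT and 3 B4 wild-type brains. Spg21 had a log2 difference of 0.29 (SE 0.22, limma adjusted p = 0.599) as LT minus B4, Dlat 0.19 (SE 0.19, limma adjusted p = 0.719) and Pts 0.11 (SE 0.21, limma adjusted p = 0.864). Cryab and Adpgk had 0.08 and 0.07 (limma adjusted p = 0.916 and 0.925). Limma called 65 of the 7453 tested probe sets, 0.872%, in this comparison. The LT mice were all younger than the B4 wild-type mice, so number letters and age cannot be told apart. Against the 3 B4 wild-type brains alone the genotype differences were -2.43 for Spg21, -1.27 for Pts, -0.47 for Dlat, -0.84 for Adpgk and -0.92 for Cryab.

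The levels of the genes among the 6 wild-type brains gave no relation that passed adjustment over the 10 pairs. The closest pair was Pts and Dlat, with Pearson's r of 0.90 (exact permutation p = 0.0194, adjusted 0.139) and Spearman's rho of 0.83 (exact permutation p = 0.0583, adjusted 0.292). The value was r = 0.49 without the 2 arrays farthest from the median of Pts. Dlat and Cryab had r = 0.88 (exact permutation p = 0.0278, adjusted 0.139) and rho = 0.83 (exact permutation p = 0.0583, adjusted 0.292), and r = 0.57 without the 2 arrays farthest from the median of Dlat. Wild-type 1 had the lowest wild-type signal of Pts, Dlat and Cryab, and wild-type 5 the highest of Dlat and Cryab. Spg21 had r between -0.25 and -0.04 with the other 4 genes. Its Spearman's rho ran from -0.77 with Cryab (exact permutation p = 0.103, adjusted 0.343) to -0.20 with Pts. Without the 2 arrays farthest from the median of Spg21, its r ran from -0.82 with Adpgk to 0.42 with Pts. Of the 5 relations to the Gapdh ratio within wild-type brains, Pts had r = -0.72 and rho = -0.89 and Dlat r = -0.62 and rho = -0.89. The exact permutation p of either rho was 0.0333 (adjusted 0.0833), and the lowest adjusted p of a Pearson's r was 0.385.

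Over all 11 arrays, where the genotype difference itself enters, the probe sets most like each gene in log2 signal came from many chromosomes. Adpgk was closest to S100a13 (r = 0.97), Ndufab1 (r = 0.96) and Fbxo9 (r = 0.96). Cryab was closest to Cpox (r = 0.94), Fbxo9 (r = 0.91) and Mrpl28 (r = 0.91). Both had Fbxo9, itself a chromosome 9 gene, among their closest 3. Spg21 was closest to Slc6a4 (r = 0.92), Hgsnat (r = 0.91) and Mapre1 (r = 0.90). Slc6a4, the serotonin transporter gene, was also the third closest to Dlat (r = 0.88), after Sh3gl1 (r = 0.92) and Tpst1 (r = 0.91). Its signal averaged 29.8 ± 3.07 (SD, n = 5) in null brains, against 40.75 ± 4.05 (SD, n = 6) in wild-type brains. Pts was closest to Myorg (r = 0.90), Cryab (r = 0.88) and Chrng (r = 0.87), the last the γ subunit of the muscle nicotinic receptor. Chrng was dim, with 18.3 ± 15.1 (SD, n = 5) in null brains, against 47.0 ± 10.8 (SD, n = 6) in wild-type brains. Its null mean lay under the filter level of 25.8. Among the 5 genes the closest pair was Cryab and Adpgk (r = 0.90) and the least alike Dlat and Adpgk (r = 0.74). Many other genes were as close or closer. Ranked by r among the probe sets of other genes, the 5 ran from 2 (Cryab for Pts) to 563 (Dlat for Adpgk). Cryab stood at rank 30 for Adpgk. These correlations describe arrays that share the same 5 null brains and have no p.

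Other genes on the stretch of chromosome 9 from Pts to Spg21 lay about evenly above and below 0. That stretch spans 183 protein-coding genes, and 59 genes with a tested probe set lie on it, the 5 included. Of the 54 that are not among the 5, 26 had a log2 difference below 0 and 28 above, with a median of 0.02, as over all tested genes (0.02). The values ran from -0.53 to 0.96. Without null 1 and null 2 the median was 0.08, against 0.01 over all tested genes. All null arrays were below all wild-type arrays for 1 of the 54 (Hacd3) and above for 1 (Neo1), 1.85% each, where the background was 0.456% and 0.509% of genes through their brightest probe set. Hacd3 averaged 1182 ± 211 (SD, n = 5) in null brains, against 1557 ± 95.2 (SD, n = 6) in wild-type brains, a log2 difference of -0.45 (-0.15 without null 1 and null 2). Over the whole chromosome 2 of 296 other tested genes were lower and 2 higher in this way, 0.676% each. Without null 1 and null 2, 3 other tested genes of the chromosome lay under -1, all with overlapping groups. U2surp, 299 genes beyond Chrnb4, had -1.96 without them and -0.30 over all arrays, Htr3a, a serotonin receptor channel subunit 71 genes before Chrnb4, had -1.55 and -0.80, and Cln6, 87 genes beyond Chrnb4, had -1.14 and -0.22.

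Immediate neighbours had values of either sign. Neo1, the gene next to Adpgk and the receptor neogenin of axon guidance, averaged 121.4 ± 40.1 (SD, n = 5) in null brains, against 64.0 ± 10.1 (SD, n = 6) in wild-type brains, a log2 difference of 0.96 (SE 0.20), against -0.85 for Adpgk. Without null 1 and null 2 the values were 0.50 for Neo1 and -0.52 for Adpgk. Hspb2, the gene next to Cryab and itself a small heat-shock gene, averaged 111.5 ± 20.2 (SD, n = 5) in null brains, against 90.65 ± 12.7 (SD, n = 6) in wild-type brains, with a log2 difference of 0.24 (SE 0.16) and overlapping groups. Neither passed limma's test over all probe sets (adjusted p = 0.0773 and 0.367).

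Between Pts and Dlat lie Sdhd, a subunit of respiratory complex II, at -0.45 (-0.97 without null 1 and null 2), Il18, a cytokine gene, at -0.32 (-0.07) and Timm8b, of mitochondrial protein import, at -0.22 (0.18). On the other side of Pts, Ncam1 had -0.20, Drd2, the D2 dopamine receptor, -0.19 and Zw10 0.20. Beyond Cryab and Hspb2, 1110032A03Rik had 0.28 and Ppp2r1b 0.14. Around Spg21 the nearest tested genes were Pdcd7 at -0.19, Parp16 at 0.35 and Igdcc3 at 0.40 on one side and Oaz2 at 0.75, Ppib at -0.25 and Snx1 at 0.09 on the other. Farther from Adpgk, Nptn had 0.08, Cd276 0.06, Arih1 0.15, Hexa 0.55 and Parp6 0.37. The genes directly beside Chrnb4 had no tested probe set. Its nearest tested genes, 3 to 9 protein-coding genes away, were Psma4 at 0.02, Ireb2 at -0.03, Wdr61 at -0.12, Tmem266 at -0.47, Etfa at -0.23 and Rcn2 at -0.20. Of all these neighbours Neo1 alone had groups that did not overlap, and limma called none of them at an adjusted p threshold of 0.05.

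**Figure D4:**
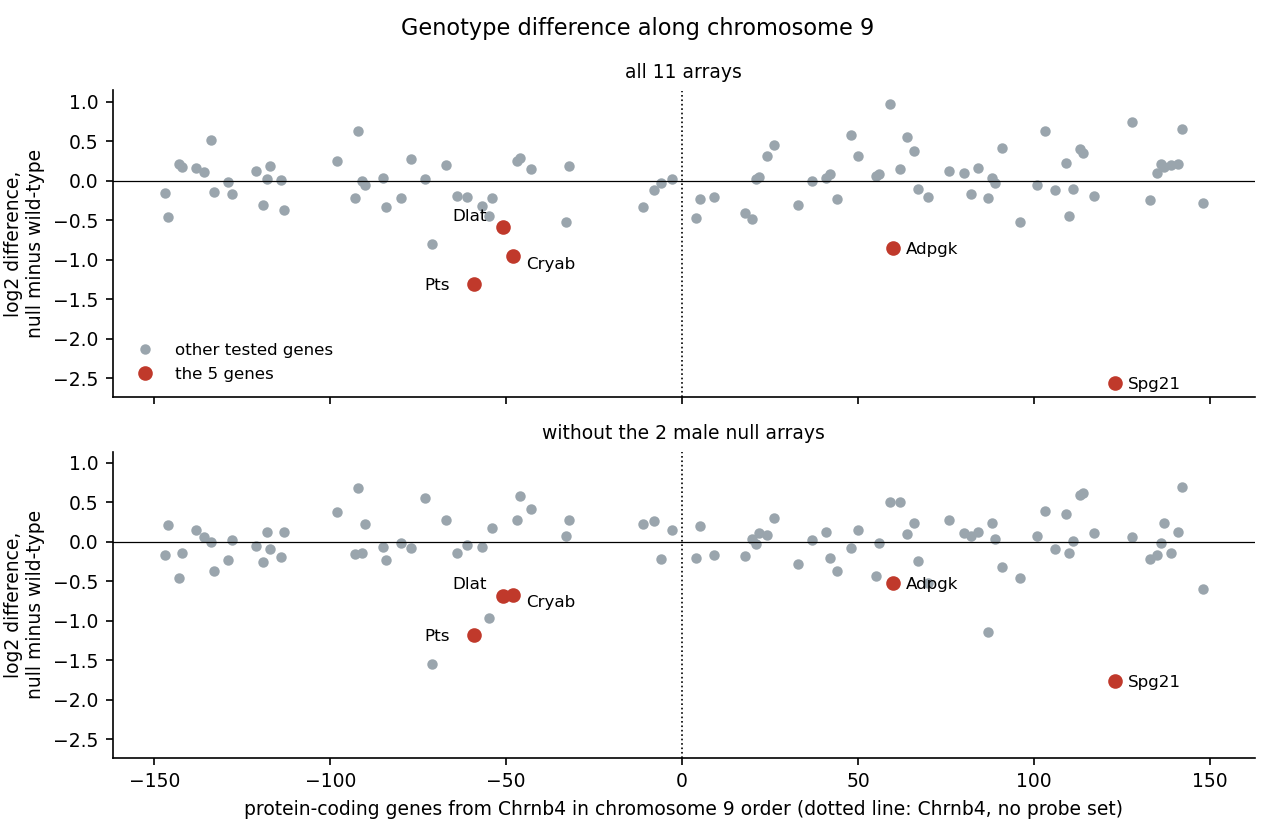
Null minus wild-type log2 difference of chromosome 9 genes by their place in the order of protein-coding genes, counted from Chrnb4 at 0 and drawn to 150 genes on either side, over all 11 arrays and without the 2 male null arrays. The 5 genes are labelled and lie from -0.59 to -2.56 over all arrays, while the 54 other tested genes between Pts and Spg21 run from -0.53 to 0.96 around a median of 0.02.

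The other tested genes of the pathways to which the 5 belong had median differences near or above 0 over all arrays. Of the genes that make, recycle or use tetrahydrobiopterin, 13 of 18 listed are on the array and 8 were tested. Limma called 0 of the 7 besides Pts for genotype, where the background was 0.0268% of probe sets and 23.1% had an unadjusted p under 0.05. None of the 7 had groups that did not overlap, where the background was 0.456% of genes lower and 0.509% higher. Counts of 0 in lists this short, here and below, are near these shares and set no list apart. Their median log2 difference was 0.24 (-0.13 without null 1 and null 2). Spr, sepiapterin reductase, which follows Pts in the pathway, averaged 77.7 ± 27.2 (SD, n = 5) in null brains, against 55.45 ± 12.2 (SD, n = 6) in wild-type brains, a log2 difference of 0.51 (SE 0.25), and -0.15 without null 1 and null 2. Pcbd2, which regenerates the cofactor, had the lowest value after Pts, -0.56 (0.02 without these arrays). Th, tyrosine hydroxylase, had 0.43 (-0.13 without these arrays), and Qdpr, which reduces the used cofactor, averaged 1467 ± 128 (SD, n = 5) in null brains, against 1467 ± 294 (SD, n = 6) in wild-type brains. Gch1, the enzyme of the first step, did not pass the filter, with 16.2 ± 4.93 (SD, n = 5) in null brains, against 18.2 ± 6.43 (SD, n = 6) in wild-type brains.

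Of the pyruvate dehydrogenase complex, its regulators and sister complexes, 13 of 19 listed genes were tested. Limma called 0 of the 12 besides Dlat (background 0.0268% of probe sets). None of them had groups that did not overlap (background 0.456% of genes lower and 0.509% higher). Their median was 0.26 (-0.10 without null 1 and null 2). Among the core subunits, Pdhb had -0.31 (-0.40 without null 1 and null 2), Pdha1 0.32 (-0.29) and Dld -0.01 (-0.13). The lowest after Dlat was the kinase Pdk3 at -0.41 (-0.07), and the highest was Dlst at 0.75 (0.15), which is the matching acyltransferase of the 2-oxoglutarate dehydrogenase complex.

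For glucose phosphorylation and glycolysis, 15 of 21 listed genes were tested. Limma called 0 of the 14 besides Adpgk (background 0.0268% of probe sets). None of them had groups that did not overlap (background 0.456% of genes lower and 0.509% higher). The 14 had a median of 0.22 (-0.05 without null 1 and null 2), with 12 above 0. The ATP-dependent hexokinases Hk1 and Hk2 had 0.02 and -0.12 (-0.57 and -0.01 without null 1 and null 2). Pfkm, the muscle-type phosphofructokinase, had the highest value, 1.29 (0.03 without these arrays), with 906 ± 667 (SD, n = 5) in null brains, against 339.1 ± 67.0 (SD, n = 6) in wild-type brains.

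Of the small heat-shock genes and their partners, 10 of 17 listed were tested. Limma called 0 of the 9 besides Cryab (background 0.0268% of probe sets). None of them had groups that did not overlap (background 0.456% of genes lower and 0.509% higher). The 9 had a median of 0.22 (0.02 without null 1 and null 2). Hspb8, another small heat-shock protein, was the highest at 0.55 (0.02), and Hsp90aa1, an inducible chaperone, the lowest after Cryab at -0.25 (-0.10). Cryaa, the lens partner of αB-crystallin, and Hspb1 did not pass the filter.

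Of the genes listed for hereditary spastic paraplegia and for endosomes, 11 of 26 were tested. Limma called 0 of the 10 besides Spg21 (background 0.0268% of probe sets). The 10 had a median of -0.04 (-0.02 without null 1 and null 2). Their groups all overlapped, where 0.456% of all tested genes were lower and 0.509% higher without overlap. Kif5a and Kif1a, kinesin motors of axonal transport, had 1.75 and 1.24 (0.47 and 0.11 without null 1 and null 2). Aldh9a1, an aldehyde dehydrogenase gene kept as listed though not a known paraplegia gene, had -0.57 (0.04). Reep1, a shaper of the endoplasmic reticulum, had -0.35 (0.02), and Spast, a microtubule-severing protein, -0.16 (-0.07). Over all tested genes the median difference was 0.02, and 0.01 without null 1 and null 2.

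**Figure D5:**
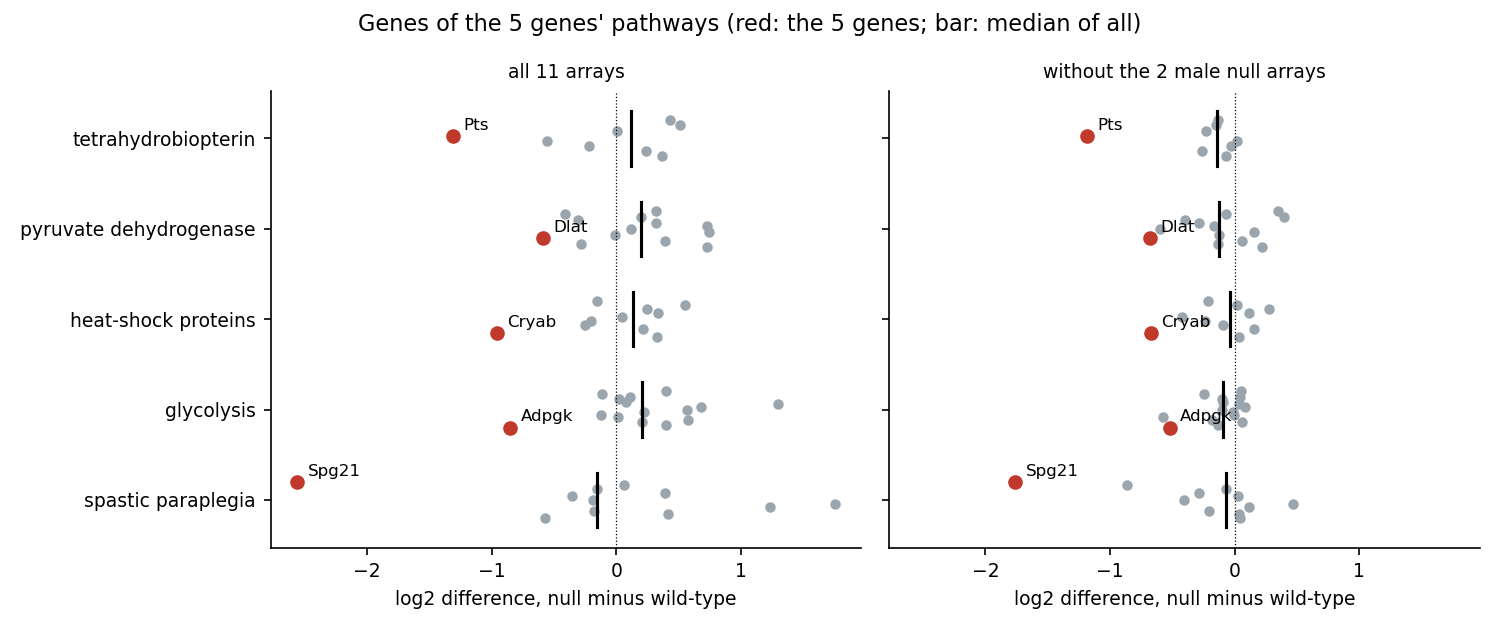
Null minus wild-type log2 difference of each tested gene in the 5 lists, over all 11 arrays and without the 2 male null arrays, each point 1 gene, with the one of Spg21, Pts, Dlat, Adpgk and Cryab in each list in red. The red points, chosen for their low values, run over all arrays from -2.56 for Spg21 to -0.59 for Dlat, and the bars for the median of each whole list run from -0.16 to 0.21.

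Most listed markers of brain cell types passed the filter on low signals, while Gad2 of neurons, Cnp of oligodendrocytes and Aif1 of microglia did not. The summed signal of 8 oligodendrocyte markers (of 11 listed) ran from 6287 to 7484 on null and from 5672 to 8672 on wild-type arrays. That of 7 astrocyte markers (of 9 listed) ran from 6895 to 7923 on null and from 6303 to 7624 on wild-type arrays. The ranges of both cell types in which Cryab is best known thus overlapped between the genotypes, with list medians of 0.22 and -0.03 for the genotype difference (-0.30 and 0.06 without null 1 and null 2). The sum of 9 neuronal markers (of 10 listed) was 10536 to 13053 on null arrays, highest on null 1 and null 2, and 9092 to 11424 on wild-type arrays. Endothelial markers summed to 713.4 to 1074.5 on null and 893.0 to 1415.9 on wild-type arrays, and microglial markers to 1643 to 2472 on null and 1755 to 2156 on wild-type arrays. Choroid plexus markers summed to 663.8 to 1396.6 on null and 982.0 to 1762.2 on wild-type arrays. Within wild-type, endothelial sums were 1335.5 to 1415.9 on LT and 893.0 to 1055.0 on B4 arrays. Neuronal sums were 9092 to 9747 on LT and 10504 to 11424 on B4 wild-type arrays. The astrocyte and microglial sums of LT and B4 wild-type arrays did not overlap either, while the oligodendrocyte and choroid plexus sums did. Muscle markers (135.1 to 197.8 on null, 132.0 to 191.9 on wild-type arrays) and lens markers (173.7 to 255.1 on null, 147.8 to 245.9 on wild-type arrays) were low in both, and Cryaa and Mip, which define lens, were under the filter. None of the markers on the array was at the floor on every array. The part of any of these cell types in the 5 genes' values was not tested.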

How the data were processed

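The deposited intensity values, 1 linear signal per probe set and array, come from MAS5, per the submitters' processing notes. No source used here states its version or settings, and detection calls were not used. MAS5 scales each array to a common mean, so a value is relative to its array. Of 12488 probe sets, 66 are controls, 10855 are annotated with 1 gene, 396 with several and 1237 with none. Names were taken from those with 1 gene, 10839 of which are in the reference table of GRCm38.p6 that gave the gene order.

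Signals under the 10th percentile of the table (3.1) were raised to it before log2. The filter kept probe sets whose mean log2 signal reached the 40th percentile (4.69, or 25.8 unlogged), which were 7453, covering 5699 named genes. Between 7.76% and 11.9% of an array's values lay at the floor, which understates folds of dim genes, and the number of arrays limits the precision. Genotype (with sex as covariate), sex (with genotype), their interaction and, within wild-type, the mouse number letters were fitted with limma 3.58.1 in R 4.3.3 (lmFit, eBayes with trend) and adjusted by Benjamini-Hochberg over all 7453. The scripts were tested on simulated data. Each mouse gave 1 array, and the spread is that between mice. A gene's main probe set is its brightest. The interaction estimate is uncorrelated with the sex-adjusted genotype difference.

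The 5 genes, the gene lists and the tests were chosen with earlier results of these data known, and a pattern already seen there is no independent support. Named are all probe sets of the 5 genes, of each list the highest, the lowest and those whose groups do not overlap, the 3 nearest tested genes on each side, and the 3 probe sets most like each gene. Further list genes (Spr, Qdpr, Th, Gch1, Pdhb, Pdha1, Dld, Hk1, Kif1a, Reep1, Spast, Cryaa, Hspb1, Mip), Hacd3, U2surp, Htr3a, Cln6, Fbxo9's shared place and the levels of Slc6a4 and Chrng were picked after their values were seen.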

Additional observations from a re-analysis of the deposited data

Results flagged for a closer look

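Spg21 had 1 array apart from its group. Wild-type 3, a female of 7 weeks, had a signal of 211.6, against 426.8 to 534.2 on the other wild-type arrays, a gap of 0.667 of the group's whole range, which is above Dixon's critical value for 6 samples. It was the 1 such array among 14 groups of arrays examined, and chance marks about 1 in 20 such groups.

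The genotype difference of Spg21 passed the interaction test with sex, with 1.52 on the log2 scale for females minus males, as did 15.9% of all tested probe sets. With the Gapdh ratio as covariate it was 1.29 and did not pass (limma adjusted p = 0.627). It was 1.01 without wild-type 3 and 2.02 without wild-type 5, the 2 female wild-type arrays.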

How the results depend on the processing

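With 1 mouse left out at a time, the genotype difference ran from -2.91 to -2.36 for Spg21, -1.44 to -1.12 for Pts, -0.64 to -0.50 for Dlat, -1.08 to -0.86 for Cryab and -0.94 to -0.76 for Adpgk. With the Gapdh ratio as covariate it was -1.58 for Spg21, -0.53 for Cryab and -0.40 for Adpgk. Without the 2 male null arrays it was -1.76 for Spg21 and -0.52 for Adpgk, and with a pseudocount of 16 it was -0.63 for Adpgk. The other probe set gave 0.15 for Dlat and 0.38 for Cryab, and the mean over both probe sets -0.22 and -0.29. Each main probe set stayed below 0 under all settings run. Centring on the median moved the median of all probe sets by -0.18.

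The 2 probe sets called for genotype became 1 with quantile normalization, with median centring and without covariate, and 26 in B4 mice alone. They became 0 in limma without the filter, with age, with the Gapdh ratio and without the male null arrays, where 2102, 847, 347 and 264 had an unadjusted p under 0.05. Leaving out 1 mouse gave 1 to 877, with 877 without wild-type 5, 195 without wild-type 3 and 9 without null 5.

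The sex difference of Spg21 was -0.61 without covariate, -0.0087 with age, -0.41 with the Gapdh ratio and -0.64 without the male null arrays. It was -0.14 for Pts and -0.073 for Dlat without covariate, and -0.00044 for Dlat with age. Leaving out 1 mouse gave -0.11 to 0.47 for Spg21 and -0.012 to 0.13 for Dlat. The interaction with the Gapdh ratio as covariate was 1.29 for Spg21 (limma adjusted p = 0.627), -0.94 for Pts, 0.14 for Dlat and -0.049 for Cryab. For Dlat it was 0.065 with quantile normalization and 0.037 with median centring. Leaving out 1 mouse gave 1.01 to 2.02 for Spg21, with limma adjusted p from 0.00449 to 0.0447, and -0.034 to 0.71 for Pts. The 1187 interaction calls became 644 in B4 mice alone and 0 with the Gapdh ratio in limma (659 at an unadjusted p under 0.05), and 461 to 1406 with 1 mouse left out. LT minus B4 ran from -0.068 to 0.48 for Spg21, -0.031 to 0.24 for Pts, -0.067 to 0.30 for Cryab and -0.0011 to 0.16 for Adpgk with 1 mouse left out. The causes of these changes were not tested. No paired analysis was possible because the labels give no litter, and the mouse numbers name single animals.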
